A study of Mus musculus with 17 samples.

Results

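The genes described here handle iron and heme: Hmox1, Slc40a1, Fth1, Ftl1, Heph, Tfrc, Trf, Slc11a1, Slc11a2 and Cd163. They were taken by symbol, and all 10 had a row in each of the 3 deposited count tables, out of 19188 genes with a row in any table. RNA was measured in mouse liver cells in 17 libraries. Kupffer cells, which are the macrophages that live in the liver, gave 4 libraries labelled KC1 and 4 labelled KC2, both from mice induced with DEN (in liver work usually the carcinogen diethylnitrosamine) and from what the labels abbreviate as PME. Early hepatocellular carcinoma (HCC) cells from DEN-induced mice gave 3 libraries with Mef2d knocked out (KO) and 3 with wild-type Mef2d (WT). Normal liver cells gave 3 libraries, with no DEN named in their labels. The labels give no strain, age or sex and do not say how Mef2d was knocked out or how KC1 and KC2 were separated. Nor do they say that replicates came from separate animals, and p-values cover the spread between libraries, which could be technical. The submitters' title of the KO and WT counts reads in part H22 C1C17 AML sh vs ctrl. The labels explain none of these terms, so what cells these libraries came from rests on the labels alone.

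Macrophages of the liver and spleen take up aged red cells and the hemoglobin and heme they release, and return the iron to the blood. Heme is opened by heme oxygenase, the freed iron is stored inside ferritin shells or leaves the cell through ferroportin, and a copper ferroxidase lets plasma transferrin bind it. Other cells recover that iron through the transferrin receptor. Cells tune several of these steps after transcription: iron regulatory proteins bind short hairpins called iron-responsive elements, holding back translation from the 5′ UTR of the ferritin and ferroportin messages and protecting the transferrin receptor message from its 3′ UTR when iron is scarce. The hormone hepcidin, made mainly by hepatocytes in response to BMP signals, removes ferroportin protein from the membrane. Transcript levels as measured here therefore cover only one layer of this control.

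The hairpins are shown because the iron regulatory proteins act through them, a layer that RNA counts for ferritin do not show. The search took each transcript in its own sense for C, then a stem of 5 base pairs (G with T allowed) closed around the loop CAGTGN. A UTR match was found in 4 of the 10 genes, against 0.544% of 21875 protein-coding genes with the same search in GENCODE M21 on GRCm38 (119 genes). These 4 encode the messages named above as carrying the element, so the contrast was set in advance and is no finding about the 10 genes. Below, capitals mark the loop, and 5 bases are shown on each side of the hairpin.
Fth1 5′ UTR (chr19:9982733-9982759, plus strand): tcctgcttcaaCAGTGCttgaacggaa
Ftl1 5′ UTR (chr7:45459780-45459806, minus strand): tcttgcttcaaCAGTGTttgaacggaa
Slc40a1 5′ UTR (chr1:45925466-45925492, minus strand): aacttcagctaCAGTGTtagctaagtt
Tfrc 3′ UTR (chr16:32631220-32631246, plus strand): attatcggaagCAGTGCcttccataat
Tfrc 3′ UTR (chr16:32631599-32631625, plus strand): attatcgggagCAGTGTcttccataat
Tfrc 3′ UTR (chr16:32631664-32631690, plus strand): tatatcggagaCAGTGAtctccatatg
Tfrc 3′ UTR (chr16:32631711-32631737, plus strand): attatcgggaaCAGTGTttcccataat
The Fth1 and Ftl1 hairpins have the same stem letters, and Tfrc carried 4 matches where the other 3 genes carried 1 each. A match of letters is a description and no measure of binding, and its absence from the other members says only that these letters were not found. Slc11a2, for one, is known for an iron-responsive element in the 3′ UTR of some of its transcripts that this strict search did not return.

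Library totals ran from 15353249 to 16743459 expected counts in Kupffer cells, 16604606 to 17683298 in early HCC cells and 18467849 to 18637765 in normal liver cells. Levels are CPM (the count of a gene over the library total, with TMM scaling), and calls rest on an edgeR adjusted p (Benjamini-Hochberg, over all genes tested) under 0.05. The labels were checked against markers first. The summed level of 12 Kupffer cell markers was 25570 to 34700 CPM in KC1 and 2939 to 12600 CPM in KC2, while 15 sinusoidal endothelial markers summed to 1091 to 1613 CPM in KC1 and 20090 to 34870 CPM in KC2. The KC2 libraries thus held more endothelial than Kupffer marker RNA, and KC2 replicate 1 stood apart with the lowest Kupffer and the highest endothelial sum. KC1 replicate 2 stood apart with the highest Kupffer sum. By single genes, 6 of the 12 Kupffer markers were lower in KC2 and 2 higher, and Clec4f was not called (3632 ± 760 CPM in KC1, 1510 ± 869 in KC2, SD, n = 4 each, edgeR adjusted p = 0.0564). Mrc1, Cd36 and Esam, surface markers used for KC2 in earlier work and also made by endothelial cells, were 6.03-fold, 11-fold and 70.7-fold higher in KC2. Early HCC libraries had near-zero Alb (0.131 CPM in WT) and normal liver libraries 2.40 CPM, so the defining hepatocyte gene was nearly absent from both, while Mki67 of dividing cells stood at 594 ± 2.74 CPM in WT and 469 ± 23.0 in normal liver (SD, n = 3 each).

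The comparison of KC2 with KC1 asked how the cells under these labels, both called Kupffer cells by the submitters, differ. Of the 10 genes, 7 were lower in KC2 and 2 were higher, and Cd163 was not called. Heme oxygenase, both ferritin chains, ferroportin, the transferrin receptor and both Slc11a metal transporters were the lower ones, and hephaestin and transferrin the higher ones. The background was wide: of 12774 genes tested, 27.9% were called lower and 31.9% higher. The median log2 fold change was −1.46 over the 10 genes and 0.03 over all genes tested. Together these genes took 4.47% to 5.24% of all counts in KC1 libraries and 1.09% to 2.02% in KC2 libraries, most of it ferritin. In bulk RNA, fewer cells of a type and less RNA per cell cannot be told apart.

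**Figure D1:**
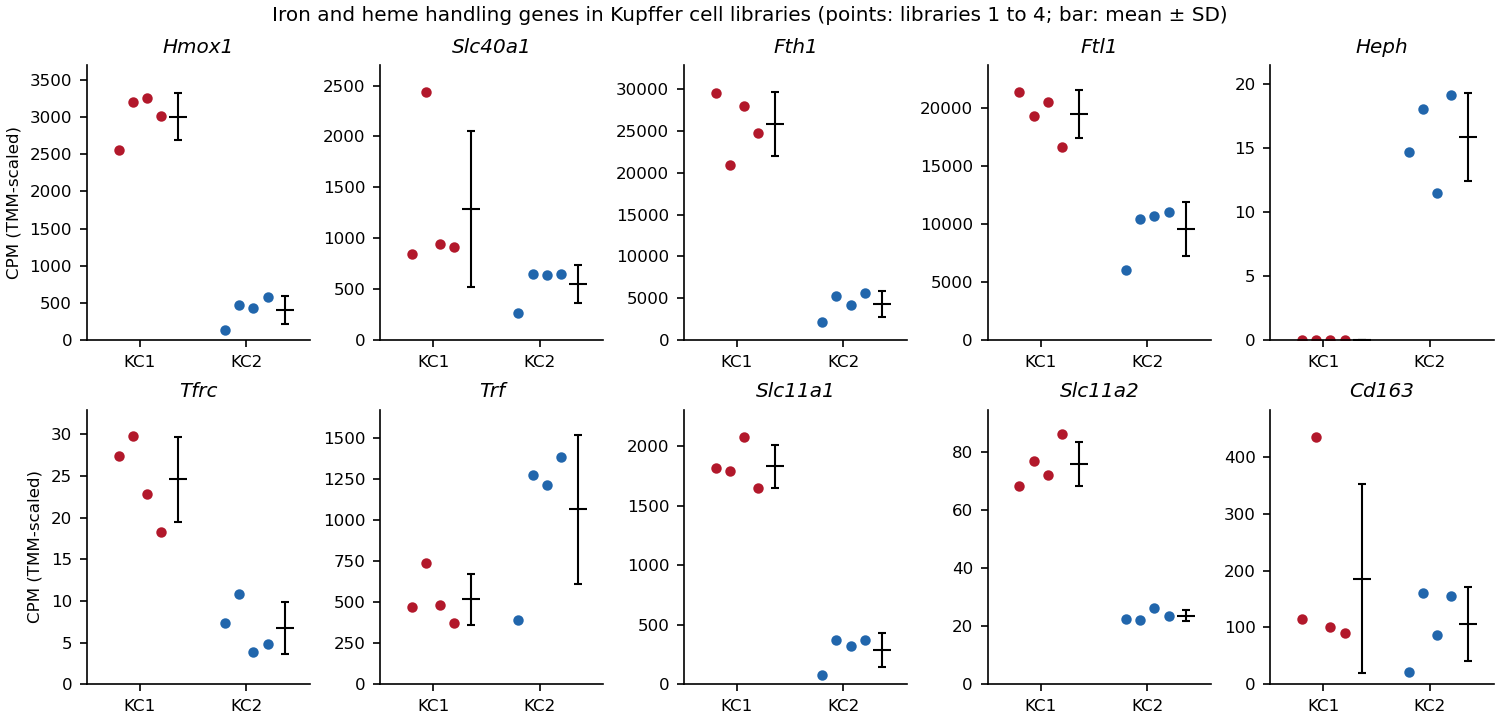
Level of each of the 10 genes (CPM, linear axis from 0) in the 4 KC1 and 4 KC2 libraries, as points in replicate order with the mean and SD beside them. The groups do not overlap except for Trf and Cd163, and KC1 replicate 2 lies far above its group for Slc40a1 (2438 CPM) and Cd163 (436 CPM). The share of all genes whose groups do not overlap was not counted.

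Hmox1 (gene 15368, chromosome 8, 75093618 to 75100593 on GRCm38) encodes heme oxygenase 1, the inducible enzyme that opens heme to biliverdin, carbon monoxide and iron. Its level was 2554, 3210, 3259 and 3012 CPM in KC1 replicates 1 to 4 and 135, 470, 436 and 575 CPM in KC2 replicates 1 to 4. Every KC1 library lay above every KC2 library, and KC2 replicate 1 was the lowest of all. The mean was 3009 ± 321 CPM in KC1 and 404 ± 189 CPM in KC2 (SD, n = 4 each), 7.45-fold lower in KC2, with a log2 fold change of −2.90 ± 0.38 (SE) and an adjusted p of 8.19e-05 in edgeR. Without KC1 replicate 2 and KC2 replicate 1 the log2 fold change was −2.58 (edgeR adjusted p = 1.47e-07). This setting was added after the data were seen. Leaving out libraries that stand apart can narrow the spread, so its p-values here and below are no separate support.

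Ferritin stores iron in a shell of heavy chains, which oxidise the iron, and light chains, which help it mineralise. Fth1 (gene 14319, chromosome 19, 9980600 to 9985111), the heavy chain, stood at 29560, 20930, 28020 and 24720 CPM in KC1 and at 2092, 5268, 4185 and 5557 CPM in KC2. Ftl1 (gene 14325, chromosome 7, 45457944 to 45459886), the light chain, stood at 21450, 19360, 20570 and 16640 CPM in KC1 and at 6078, 10450, 10690 and 11020 CPM in KC2. Both genes separated the groups without overlap, by unequal amounts. Fth1 was 6.04-fold lower in KC2 (log2 fold change −2.59 ± 0.31, edgeR adjusted p = 4.78e-05) and Ftl1 2.04-fold lower (−1.03 ± 0.23, 0.00294). Without both libraries that stood apart the log2 fold changes were −2.46 and −0.87 (edgeR adjusted p of 9.83e-08 and 5.45e-05). Ferritin has many processed pseudogenes, and RSEM assigns reads shared by similar genes through a model. This makes both values uncertain as single genes, here and in the comparisons below.

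The ratio of Fth1 to Ftl1 counts within a library needs no scaling between libraries. It was 1.38, 1.08, 1.36 and 1.49 in KC1 and 0.344, 0.504, 0.391 and 0.504 in KC2. Heavy chain counts thus exceeded light chain counts in every KC1 library and fell short of them in every KC2 library. The mean was 1.33 ± 0.17 in KC1 and 0.436 ± 0.081 in KC2 (SD, n = 4 each), with a two-sided exact permutation p of 0.0286, the smallest that 4 against 4 libraries allow. Adjusted over the 7 ratio comparisons made, which were chosen with the levels known, it was 0.0667. The count ratio of Hmox1 to Slc40a1 was 2.77 ± 0.99 in KC1 and 0.703 ± 0.153 in KC2, and that of Slc11a1 to Slc11a2 was 24.4 ± 4.2 in KC1 and 12.1 ± 6.1 in KC2, each with the same exact permutation p and adjusted p. Per length, Fth1 was the highest of the 10 genes in KC1 (27780 ± 4120 CPM per kilobase of transcript) and Ftl1 the highest in KC2 (9876 ± 2410 CPM per kilobase).

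**Figure D2:**
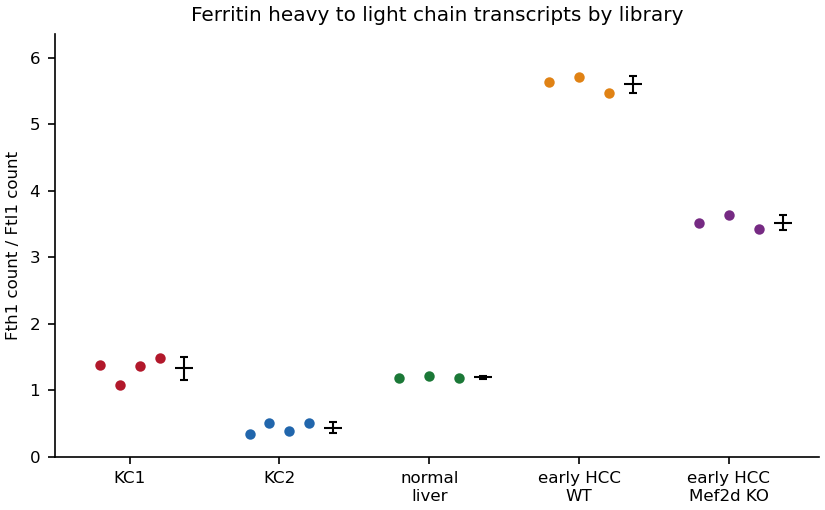
Fth1 count divided by Ftl1 count in each library of the 5 groups (linear axis from 0; points are libraries, bars the mean and SD). KC2 libraries lie below 1, KC1 and normal liver libraries between 1.08 and 1.49, and early HCC libraries between 3.42 and 5.71. Of the deposited expected counts, 83.4% to 84.7% were whole numbers in Kupffer cell libraries and 31.8% to 35.6% in the other libraries. The part of this difference in the ratios was not tested.

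Iron leaves the cell through ferroportin, encoded by Slc40a1 (gene 53945, chromosome 1, 45908070 to 45926532), the only known cellular iron exporter of mammals. It stood at 846, 2438, 945 and 912 CPM in KC1 and at 263, 644, 637 and 650 CPM in KC2. The groups did not overlap, but KC1 replicate 2 was far above its group and KC2 replicate 1 far below its own. Slc40a1 was 2.34-fold lower in KC2 (log2 fold change −1.23 ± 0.40, edgeR adjusted p = 0.0203). The size of the difference depended on KC1 replicate 2: without it the log2 fold change was −0.73 with an edgeR adjusted p of 0.0587, no longer a call, and without both libraries that stood apart it was −0.49 with an adjusted p of 0.00158, a call again. Both of those libraries lay far out in Slc40a1 itself, so leaving them out narrowed its spread, and that call is no separate support. Of all genes, the nearest to Slc40a1 over the 8 Kupffer cell libraries were Thrb, Itgav and Pld1, with root mean square differences of 0.251, 0.259 and 0.267 in centred log2 level.

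Hephaestin, encoded by Heph (gene 15203, chromosome X, 96455436 to 96574485), is a membrane ferroxidase known from iron export in the gut. Heph had no count in any KC1 library and stood at 14.7, 18.0, 11.5 and 19.1 CPM in KC2. It was detected in every KC2 library and in no KC1 library. With 3 counts over the group put in place of the KC1 zeros, Heph was at least 312-fold higher in KC2 (1120 counts over the group, edgeR adjusted p = 2.68e-06). Its annotated span overlaps Hsf3, Rpl17-ps8 and Gm14935, and the sources do not say whether strand was used in counting. The endothelial marker sum was likewise higher in KC2, and its part in the Heph difference was not tested.

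Iron enters by the transferrin cycle. Trf (gene 22041, chromosome 9, 103208876 to 103230286) encodes transferrin, the plasma iron carrier made mainly by hepatocytes, and stood at 471, 742, 483 and 374 CPM in KC1 and at 392, 1278, 1213 and 1386 CPM in KC2. KC2 replicate 1 fell within the KC1 range and the other 3 KC2 libraries lay above it. Trf was 2.06-fold higher in KC2 (log2 fold change 1.04 ± 0.36, edgeR adjusted p = 0.0274). The call was lost when any one of KC1 replicates 1, 3 and 4 or KC2 replicates 2, 3 and 4 was left out (log2 fold changes 0.89 to 1.004, edgeR adjusted p from 0.0647 to 0.0804) and in the replicate block (0.94, 0.0507). Without both libraries that stood apart it was 1.54 with an adjusted p of 2.50e-06. The summed level of 10 hepatocyte markers was 144 to 260 CPM in KC1 and 305 to 634 CPM in KC2. Of these 10, 6 were higher in KC2 (Alb 5.07-fold), 2 lower (Hpx 2.67-fold) and 2 not called. Of all tested genes, 31.9% were higher and 27.9% lower. Hp alone stood at 57.4 ± 16.8 CPM in KC1 and 261.5 ± 178 in KC2 (SD, n = 4 each), with overlapping groups. The part of hepatocyte RNA in the Trf difference was not tested.

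Tfrc (gene 22042, chromosome 16, 32608896 to 32632794) encodes transferrin receptor 1, which takes up transferrin with its iron. Its level was 27.4, 29.8, 22.9 and 18.3 CPM in KC1 and 7.37, 10.9, 3.83 and 4.87 CPM in KC2. The groups did not overlap, and Tfrc was 3.65-fold lower in KC2 (log2 fold change −1.87 ± 0.31, edgeR adjusted p = 4.46e-04). Tfrc had the lowest level per length of the genes detected in KC1, at 5.03 ± 1.04 CPM per kilobase, and of all 10 in KC2, at 1.38 ± 0.64.

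The Slc11a proteins carry divalent metal across membranes. Slc11a1 (gene 18173, chromosome 1, 74375014 to 74386057), also called NRAMP1, works in the phagosome membrane of macrophages and is known for resistance to intracellular microbes. It stood at 1811, 1793, 2076 and 1644 CPM in KC1 and at 80.9, 373, 319 and 374 CPM in KC2, 6.39-fold lower in KC2 (log2 fold change −2.68 ± 0.40, edgeR adjusted p = 2.21e-04). Slc11a2 (gene 18174, chromosome 15, 100387898 to 100424209), or DMT1, moves iron out of endosomes and into gut cells. It stood at 68.4, 76.9, 72.1 and 86.1 CPM in KC1 and at 22.6, 22.03, 26.3 and 23.5 CPM in KC2, 3.21-fold lower in KC2 (log2 fold change −1.68 ± 0.12, edgeR adjusted p = 1.35e-06). Neither gene's groups overlapped, and KC2 replicate 1 was far below the other KC2 libraries for Slc11a1 but not for Slc11a2. Without both libraries that stood apart the log2 fold changes were −2.38 and −1.66. Slc11a2 overlaps the annotated gene Gm5475.

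Cd163 (gene 93671, chromosome 6, 124304636 to 124330529) encodes the macrophage receptor for hemoglobin bound to haptoglobin. It stood at 116, 436, 101 and 90.6 CPM in KC1 and at 21.6, 160, 86.8 and 156 CPM in KC2. The groups overlapped and the gene was not called (log2 fold change −0.81 ± 0.63, edgeR adjusted p = 0.293). The sign depended on KC1 replicate 2, without which the log2 fold change was 0.04. Cd163 overlaps the annotated gene Gm52877.

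Per length the order in KC1 was Fth1, Ftl1, Hmox1, Slc11a1, Slc40a1, Trf, Cd163, Slc11a2 and Tfrc, with Heph at 0. The ranges of neighbouring genes overlapped between Slc11a1 and Slc40a1 and between Slc40a1 and Trf, and nowhere else in that order. In KC2 the order was Ftl1, Fth1, Trf, Hmox1, Slc40a1, Slc11a1, Cd163, Slc11a2, Heph and Tfrc. There the ranges overlapped from Trf down to Slc11a2, each with the next, while Ftl1 and Fth1 stood clear above them.

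Since Kupffer marker RNA was also lower in KC2, each library was scaled to the geometric mean of its 12 Kupffer marker counts in place of its total, an alternative added after the data were seen. This moved the median of all genes to 2.10, and of all genes tested 68.2% were then called higher and 1.19% lower, against 31.9% and 27.9% with TMM. On this scale only Hmox1 of the 10 was called lower in KC2 (log2 fold change −1.40 ± 0.58, edgeR adjusted p = 0.0280). Fth1 (−0.96, 0.0686) and Slc11a1 (−1.24, 0.0543) lost their calls, and Slc40a1, Ftl1, Tfrc, Slc11a2 and Cd163 changed sign without a call. Trf and Heph were higher on both scales, Trf with a log2 fold change of 2.62 relative to the Kupffer markers.

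That scaling leans on KC2 replicate 1, whose marker count was 2449 against 10240 to 11130 in the other KC2 libraries and 16980 to 25790 in KC1. With that library left out as well, the median of all genes was 1.10, with 67.8% of tested genes called higher and 5.38% lower, and 5 members were called lower: Hmox1 (−1.54), Fth1 (−1.33), Slc11a1 (−1.30), Tfrc (−0.81) and Slc11a2 (−0.59), with edgeR adjusted p from 7.44e-07 to 0.0373. Slc40a1 (0.17), Ftl1 (0.20) and Cd163 (0.74) were not called, and Trf and Heph were called higher. Per Kupffer marker count, Hmox1 was 1.91 to 2.58 in KC1 and 0.716 to 1.10 in KC2, and Slc11a1 was 1.07 to 1.64 in KC1 and 0.524 to 0.659 in KC2. These ranges do not overlap, nor do those of Trf (0.301 to 0.441 in KC1, 1.99 to 3.19 in KC2) and Heph. The ranges of the other 6 genes per marker count overlapped. The share of all genes with ranges apart on this scale was not counted.

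**Figure D3:**
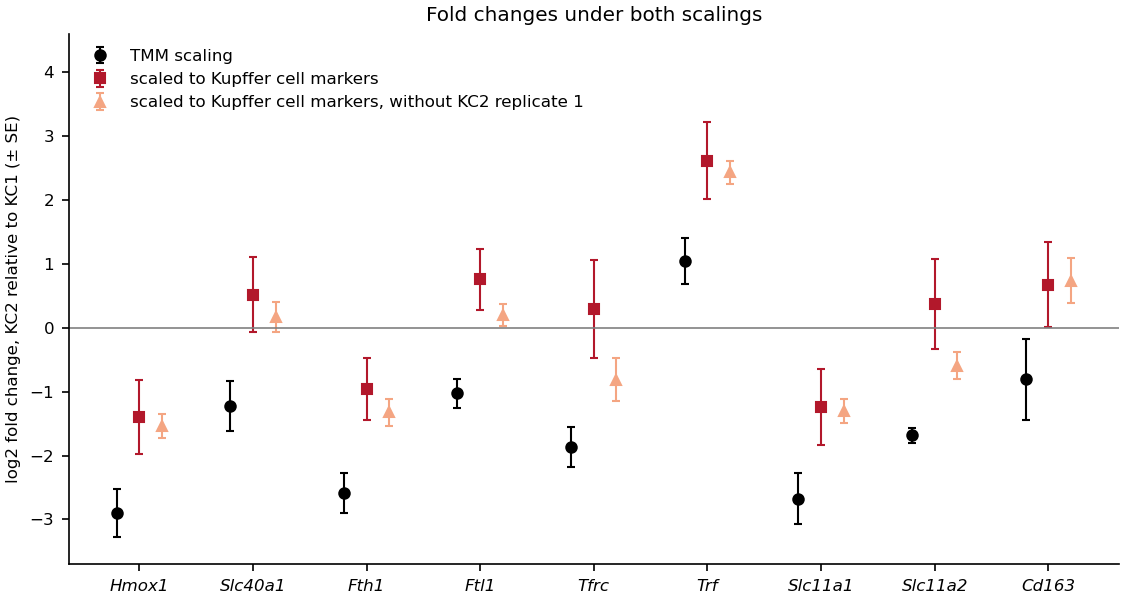
Log2 fold change of KC2 relative to KC1 with its SE for 9 of the genes (Heph, with no KC1 count, is left out) under TMM scaling, under scaling to the Kupffer cell markers, and under that scaling without KC2 replicate 1. Hmox1, Fth1 and Slc11a1 lie below 0 in all 3, Trf above 0 in all 3, and Slc40a1, Ftl1 and Cd163 cross from below to above.

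The other genes of the pathway came from 6 lists with 87 genes, fixed with earlier results of these data known. In KC2 against KC1, 28 were higher, 32 lower and 19 not called, 7 had too few counts to be tested and 1 had no row. Of all tested genes, 31.9% were higher and 27.9% lower, the background for each list below as well. Without the libraries that stood apart, 27 were higher and 30 lower (all tested genes: 31.4% and 27.7%). With scaling to the Kupffer markers, 44 were higher and 3 lower, where 68.2% of all tested genes were called higher and 1.19% lower. Markers of other cells moved with this comparison: 14 of 15 endothelial, 8 of 8 lymphocyte, 7 of 8 tested monocyte and neutrophil and 10 of 10 immediate early and heat shock genes were higher in KC2. The summed immediate early and heat shock level was 3139 to 3826 CPM in KC1 and 7430 to 12780 CPM in KC2. The part of these cells and of handling in the differences below was not tested.

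Heme transport and breakdown had 9 of 15 tested genes lower and 4 higher, with a median log2 fold change of −0.93. Slc48a1, which carries heme out of the phagolysosome, was 599 ± 57 CPM in KC1 and 119 ± 6.85 in KC2, 5.04-fold lower. Lrp1, the receptor that takes up heme bound to hemopexin among many ligands, was 7.08-fold lower (1492 ± 304 against 211 ± 108 CPM). Hmox2, the constitutive heme oxygenase, was 1.64-fold lower, and Blvra and Blvrb, the biliverdin reductases of the next step, were 3.25-fold and 2.28-fold lower. The plasma membrane heme exporter Flvcr1 was 1.92-fold lower and the heme-binding protein gene Hebp1 4.18-fold lower. The efflux pump Abcg2 was 4.47-fold higher, Abcb10 of the mitochondrial inner membrane 2.41-fold and the heme-binding Pgrmc1 2.14-fold. Of the plasma scavengers, which are also on the hepatocyte marker list, Hpx (hemopexin) was 2.67-fold lower and Hp (haptoglobin) 4.56-fold higher, the latter with overlapping groups.

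The transcription factors had 6 of 12 genes lower and 4 higher. Spic, which is required for the red pulp macrophages of the spleen and is induced by heme, was 651 ± 104 CPM in KC1 and 15.6 ± 7.40 CPM in KC2 (SD, n = 4 each), 41.8-fold lower (edgeR adjusted p = 2.92e-06). Nr1h3 (the liver X receptor alpha) was 14.0-fold lower, the small Maf gene Mafg 3.65-fold, Mitf 3.401-fold and Keap1 2.01-fold. Bach1, the heme-sensing repressor of Hmox1, was 1.49-fold higher, and Nfe2l2 (NRF2), its activator, 2.29-fold higher. Epas1 (HIF-2 alpha) was 16.6-fold higher. Among 10 NRF2 targets outside heme and iron handling, 3 were higher, 3 lower and 4 not called.

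Iron uptake and storage had 6 of 15 tested genes higher and 3 lower. The related transporters Slc39a8 (ZIP8) and Slc39a14 (ZIP14) differed in opposite directions: Slc39a8 was 3.15 ± 1.69 CPM in KC1 and 161 ± 22.7 in KC2, 51.1-fold higher, and Slc39a14 was 15.8 ± 1.07 in KC1 and 2.74 ± 0.96 in KC2, 5.78-fold lower. Ceruloplasmin (Cp), the soluble relative of hephaestin, was 4.24-fold lower, the direction opposite to Heph. Lcn2, which binds bacterial siderophores, was 4.0-fold lower, and lactoferrin (Ltf), a granule protein of neutrophils, 97.8-fold higher. The Ltf fold rests on 22 counts over the KC1 libraries (0.380 ± 0.521 CPM, SD, n = 4). The metalloreductase genes Steap2 (38 counts over the KC1 libraries) and Steap4 were 5.02-fold and 4.77-fold higher with overlapping groups. Ncoa4, the receptor for ferritin breakdown, was not called (279 ± 105 against 216 ± 50.5 CPM, edgeR adjusted p = 0.245).

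Iron sensing had 6 of 12 tested genes higher and 3 lower. Bmp2 and Bmp6, the ligands that drive hepcidin in hepatocytes and that liver endothelium makes, were 159-fold and 79.9-fold higher, Bmp2 at 2.03 ± 0.53 CPM in KC1 and 322 ± 67.1 in KC2. Bmp2 also stands on the endothelial marker list. Neo1 was 18.8-fold higher, Smad7, the inhibitory SMAD, 3.95-fold and Tmprss6 3.36-fold (overlapping groups, edgeR adjusted p = 0.0491), while the BMP receptor gene Bmpr1a was 3.27-fold lower. Some of these folds rest on few counts over the KC1 libraries: 8 for Neo1, 34 for Bmp6 and 43 for Tmprss6. Of the iron regulatory proteins that bind the hairpins shown above, Ireb2 was 1.61-fold lower and Aco1 was not called (log2 fold change −0.36 ± 0.21, edgeR adjusted p = 0.175). Hamp, hepcidin itself, stood near 1 CPM in both groups and was not called (edgeR adjusted p = 0.881).

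Heme synthesis had 3 of 9 genes higher and 4 lower. Alas1, the first and rate-limiting step, was 2.14-fold lower and Uros 2.28-fold lower, while Alad was 2.40-fold and Urod 2.34-fold higher. Iron-sulfur cluster assembly had 5 of 16 genes higher and 7 lower, with the scaffold gene Iscu 2.21-fold and the ferredoxin gene Fdx1 2.45-fold higher and Nubp1 of the cytosolic pathway 2.78-fold lower. The groups overlapped for Iscu. These list counts depended on single libraries: 3 were higher without KC1 replicate 1, and 4 were lower without KC2 replicate 2. Globin RNA did not mark either group: the erythroid markers summed to 123 to 369 CPM in KC1 and 149 to 357 CPM in KC2, and Hba-a1 and Hbb-bs were not called. Of 12 receptors for red cells and scavenging, 4 were higher, 4 lower and 4 not called.

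**Figure D4:**
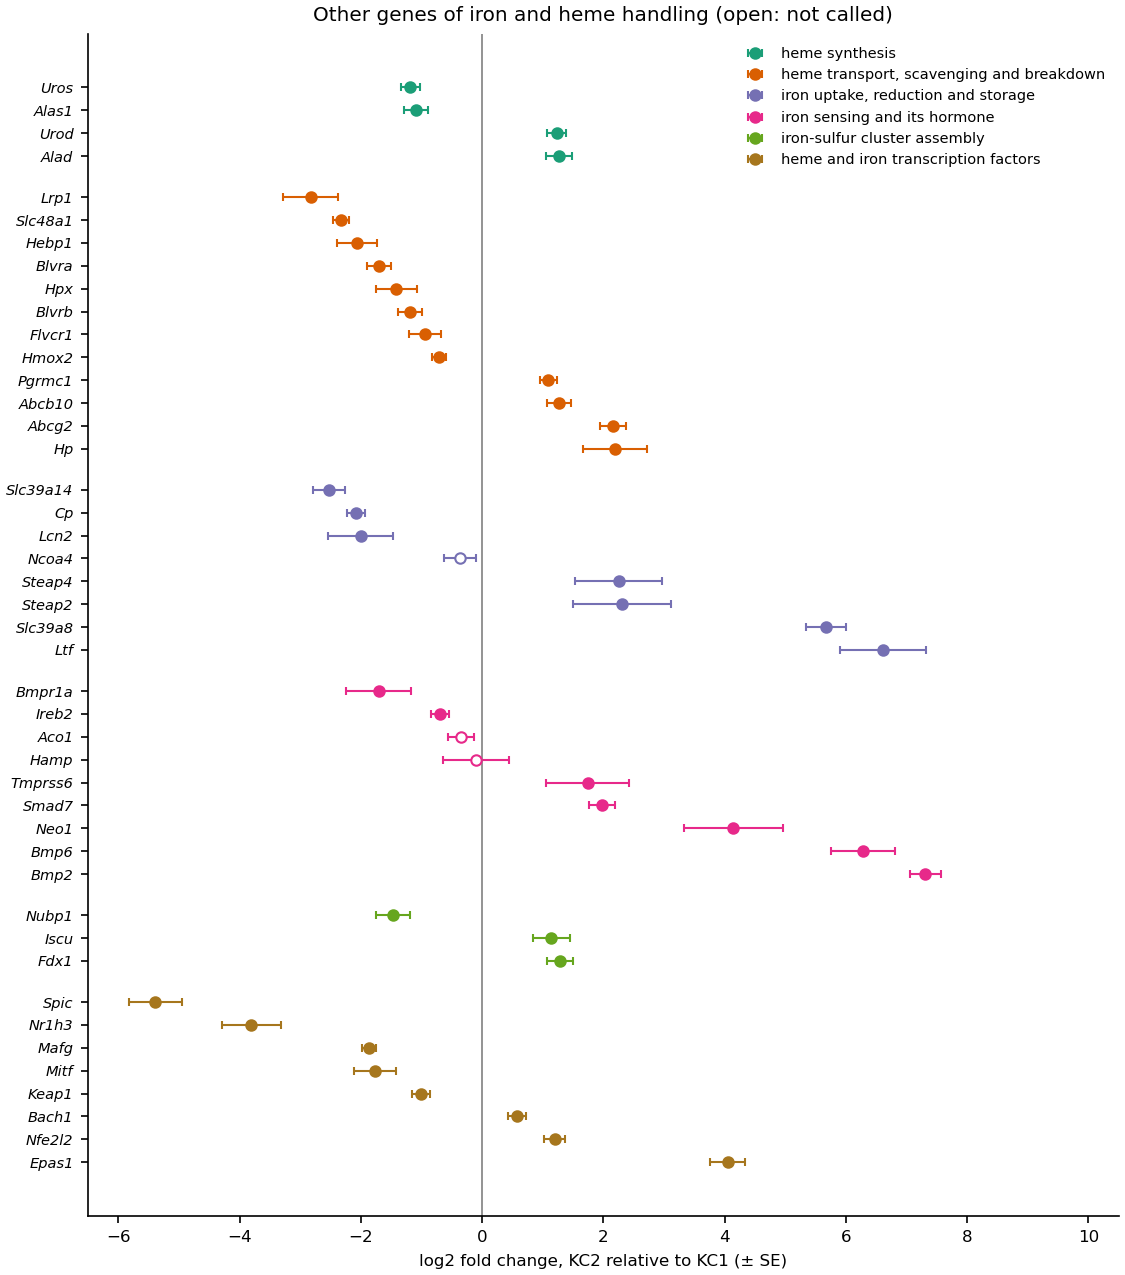
Log2 fold change of KC2 relative to KC1 with its SE for the named genes of the 6 lists, grouped by list and coloured as in the key, with open points for genes not called. Spic (−5.39) and Nr1h3 (−3.81) lie farthest to the left, and Bmp2 (7.31), Ltf (6.61) and Bmp6 (6.28) farthest to the right.

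The comparison of KO with WT early HCC cells asked what differs between libraries under these labels. Mef2d encodes a MEF2 transcription factor. Mef2d itself was 69.0, 63.3 and 65.8 CPM without TMM in KO, 101, 99.0 and 106 in WT and 60.9, 50.9 and 56.1 in normal liver, so the KO libraries were lower than WT but not empty. Of the 10 genes, 3 were higher in KO (Fth1, Ftl1, Slc11a2), Hmox1 was lower, and Tfrc and Slc11a1 were not called. The background was 32.3% of 12093 tested genes higher and 32.2% lower. The other 4 genes, Slc40a1, Heph, Cd163 and Trf, had too few counts to be tested, with at most 11 counts in any KO or WT library. Replicates were close, with a fitted biological coefficient of variation of 0.0340 against 0.267 in Kupffer cells, so small differences passed the test.

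Of the 6 genes tested, both ferritin chains had the largest differences. Fth1 was 4578, 4491 and 4558 CPM in KO and 2402, 2475 and 2505 CPM in WT, 1.85-fold higher in KO (log2 fold change 0.88 ± 0.03, edgeR adjusted p = 1.08e-12). Ftl1 was 1305, 1235 and 1334 CPM in KO and 427, 433 and 459 CPM in WT, 2.94-fold higher in KO (1.55 ± 0.04, 6.10e-14). Neither gene's groups overlapped. The Fth1 to Ftl1 count ratio was 3.52 ± 0.11 in KO and 5.60 ± 0.13 in WT (SD, n = 3 each), with an exact permutation p of 0.10, the smallest that 3 against 3 libraries allow.

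Hmox1 was 31.4, 32.8 and 33.9 CPM in KO and 39.1, 38.9 and 42.1 CPM in WT, 1.22-fold lower in KO (log2 fold change −0.29 ± 0.05, edgeR adjusted p = 2.06e-04). The groups did not overlap, and ferritin and heme oxygenase transcripts thus differed in opposite directions. Slc11a2 was 68.8, 68.4 and 69.9 CPM in KO and 62.5, 61.5 and 64.4 in WT, 1.10-fold higher (edgeR adjusted p = 0.00732). Tfrc was 242, 248 and 244 CPM in KO and 239, 230 and 228 in WT, a log2 fold change of 0.08 that was not called (edgeR adjusted p = 0.0526) but was called without WT replicate 1 (0.10, 0.0175). Slc11a1 had 30 to 53 counts in a library and was not called (edgeR adjusted p = 0.0781).

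Of all tested genes, 32.3% were higher in KO and 32.2% lower. Among the 87 other genes of the lists, 22 were higher in KO, 29 lower and 16 not called, 14 were not tested and 6 had no row. The 6 largest changes were in Scara5, a receptor reported to take up ferritin, which was 8.44 ± 0.37 CPM in WT and 0.365 ± 0.065 in KO, 23.1-fold lower, in Steap2 (3.51-fold lower) and Lcn2 (3.36-fold lower), and in Smad7, Blvrb and Cp (2.21-fold, 2.21-fold and 2.13-fold higher). Scara5 had 19 counts over the KO libraries. All 10 proliferation genes were lower in KO (summed level 1929 to 1975 CPM against 3102 to 3151 in WT), and their part in these differences was not tested.

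The comparison of WT early HCC cells with normal liver cells uses the same WT libraries, so it is not independent of the one above. Early HCC cells had 2 of the 10 genes higher (Fth1, Slc11a1) and 6 lower (Hmox1, Slc40a1, Tfrc, Ftl1, Slc11a2, Trf), and Heph and Cd163 were not tested. The background was 43.9% of 12697 tested genes higher and 43.3% lower. Trf was 26.6, 27.3 and 28.5 CPM in normal liver and 0.119, 0.224 and 0.337 CPM in early HCC, 121-fold lower (log2 fold change −6.87 ± 0.17, edgeR adjusted p = 2.61e-16). Slc40a1 was 29.1, 31.6 and 30.1 CPM in normal liver, with 1655 counts in all, against 2 counts over the 3 early HCC libraries. Relative to library totals that is a 769-fold ratio, with an exact 95% interval of 213 to 6350 that covers counting error only. Both genes were thus clearly present in every normal liver library and nearly absent from early HCC cells.

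The ferritin chains differed in opposite directions. Ftl1 was 1736, 1633 and 1658 CPM in normal liver and 425, 431 and 454 CPM in early HCC, 3.84-fold lower (log2 fold change −1.94 ± 0.04, edgeR adjusted p = 1.23e-17). Fth1 was 2046, 1993 and 1968 CPM in normal liver and 2393, 2459 and 2479 CPM in early HCC, 1.22-fold higher (0.29 ± 0.03, 1.45e-07). No library of either group overlapped the other, and the Fth1 to Ftl1 ratio was 1.20 ± 0.02 in normal liver and 5.60 ± 0.13 in early HCC (exact permutation p = 0.10, the smallest possible).

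Hmox1 was 77.0, 76.0 and 74.1 CPM in normal liver and 39.0, 38.6 and 41.7 in early HCC, 1.91-fold lower (log2 fold change −0.93 ± 0.05, edgeR adjusted p = 7.86e-12). Tfrc, at 253 to 279 CPM in normal liver and 226 to 238 CPM in early HCC, was 1.15-fold lower (edgeR adjusted p = 3.62e-04). Slc11a2 was 1.28-fold lower (79.5 ± 3.6 against 62.3 ± 1.3 CPM). Slc11a1 was 8.08-fold higher in early HCC but rested on 17 counts over the normal liver libraries and 132 over the early HCC libraries. In these cells Tfrc ranked directly below the ferritin chains per length (54.0 ± 2.8 CPM per kilobase in normal liver, 47.1 ± 1.3 in WT), whereas in Kupffer cells it was among the lowest of the 10.

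Of all tested genes, 43.9% were higher in early HCC and 43.3% lower. Of the 87 other genes of the lists, 29 were higher in early HCC, 34 lower and 10 not called. Scara5 had no count in normal liver and was at least 153-fold higher, and Cp was 124-fold lower (407 ± 17.9 against 3.29 ± 0.17 CPM). Nr1h3 was 102-fold lower, Erfe, the erythroid hormone that lowers hepcidin, 100-fold, Abcg2 91.7-fold and Slc46a1, a folate and heme carrier, 45.5-fold lower. These folds rest on few counts over the early HCC libraries, 11 for Nr1h3, 6 for Erfe, 19 for Abcg2 and 5 for Slc46a1. The 7 hepatocyte markers with a row summed to 16.3 to 17.6 CPM in normal liver and 1.12 to 2.02 CPM in early HCC, and their part in the Trf and Cp differences was not tested.

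**Figure D5:**
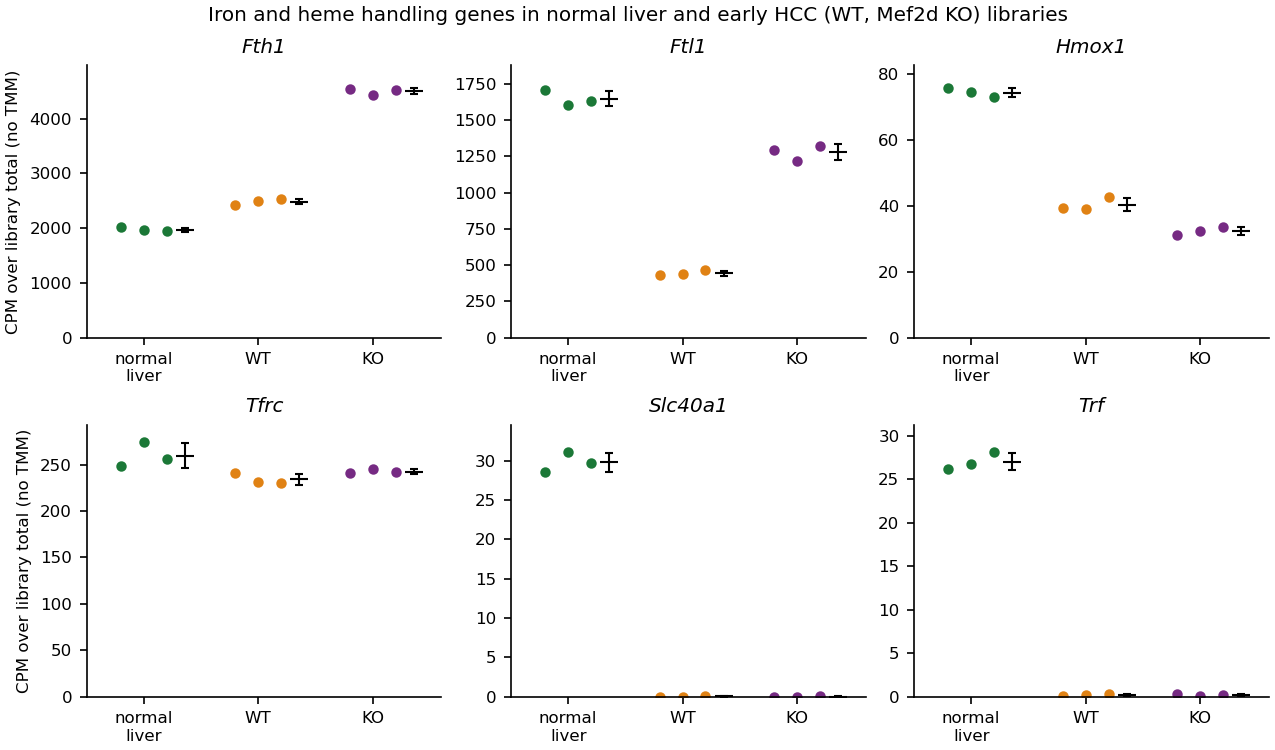
CPM over the library total (linear axis from 0, no TMM) for 6 of the genes in normal liver, WT and Mef2d KO early HCC libraries, as points with the mean and SD. Ftl1 is lowest in WT, Fth1 highest in KO, and Slc40a1 and Trf lie near 0 in both early HCC groups.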

How the data were processed

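The authors deposited expected counts per gene in 3 tables, 1 per comparison. Per the submitters' processing notes, FastQC, HISAT, RSEM and build mm10 were used. Of versions, annotation and filters nothing is stated; they were not given in the sources used here. Identifiers matched RefSeq on GRCm38 for 99.7% of genes, which gave positions, counted from 1. All columns were assigned to samples. RNA was poly(A)-selected and the kit was stranded, per the labels' protocols.

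Expected counts were rounded and each comparison was fitted with edgeR 4.0.16 in R 4.3.3 (quasi-likelihood F test, TMM, filterByExpr, only the libraries of both groups, Benjamini-Hochberg over all genes tested). Alternatives were RLE and upper-quartile factors, no filter, DESeq2 1.42.0, a replicate block, each library left out, and 3 settings added after the data were seen. The fits were tested on simulated data. Of genes simulated with a log2 fold change of 1 in size, 64.8% were recovered in KC2 against KC1. In KO against WT 91.6% were recovered, and in early HCC against normal liver 92.6%. A gene not called between KC2 and KC1 can therefore still differ. A group with no count was set at 3 counts over the group. In 1 library, 3 counts correspond to between 0.161 and 0.195 CPM over the library total. Ratios within a library were compared by exact permutation of libraries. Levels per length used 1 transcript per gene from GENCODE M21. No replicates agreed within sampling noise.

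The 10 genes, the lists and the tests were chosen with earlier results of these data known. All 10 are described everywhere. Of the lists, genes called whose log2 fold change was 1 or more in size and 17 preset genes were named for Kupffer cells, and the 6 with the largest change in each early HCC comparison. The genes nearest in pattern to Hmox1 are not reported here.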

Additional observations from a re-analysis of the deposited data

Results flagged for a closer look

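In 19 groups of 4 Kupffer cell libraries, 1 for each of the 10 genes and each label except Heph in KC1, the highest and lowest library were compared with the range of the group. Chance flags about 1 in 20 such groups, and 4 were flagged. In KC1 replicate 2, Slc40a1 (2438 CPM) and Cd163 (435.6 CPM) lay far above the other 3 libraries. In KC2 replicate 1, Slc40a1 (263.1 CPM) and Ftl1 (6078 CPM) lay far below. KC1 replicate 2 also had the highest Kupffer marker sum (34700 CPM), and KC2 replicate 1 the lowest (2939 CPM).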

How the results depend on the processing

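For KC2 against KC1, the count of members called higher was 1 in the replicate block and 1 to 2 across the fits that left out a library, and the count called lower was 1 with scaling to the Kupffer cell markers. On that scale Slc40a1 (0.51), Tfrc (0.29), Ftl1 (0.76), Slc11a2 (0.37) and Cd163 (0.67) changed sign, and without KC2 replicate 1 as well Slc40a1 (0.17), Ftl1 (0.20) and Cd163 (0.74) did. The log2 fold change of Cd163 was also above 0 without KC1 replicate 2 and without both libraries that stood apart (0.39), and it ran from −1.08 to 0.04 across the fits that left out 1 library. The cause was not tested. Under RLE or upper-quartile factors, no filter and DESeq2 all members kept their direction and call in each comparison where they were tested, and no setting changed a call in the comparison of early HCC with normal liver. Replicate numbers are not said to pair the libraries. Same-numbered Kupffer libraries deviated together with correlations of −0.027 to 0.047, and differently numbered ones with −0.0846 to 0.0776. With so few libraries this cannot settle whether they were paired. The replicate block otherwise called Tfrc in KO against WT (0.08, edgeR adjusted p = 0.0460). Slc40a1, Heph, Cd163 and Trf had too few counts for a test between KO and WT.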
